A study of Mus musculus with 7 samples.

Results

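VL30 elements and murine leukemia virus (MLV)-like elements are gammaretrovirus-like endogenous retroviruses (ERVs) of the mouse, repeats that entered the germline as retroviral copies and now sit in the genome as long terminal repeats (LTRs) around an internal region. They were taken here as the rows of the RepeatMasker count table whose element name starts with MMVL30, RLTR6, RLTR4 or MuLV, which gave 18508 of the 3494995 loci in the table. The prefix RLTR4 also takes in the names RLTR40 to RLTR49, which are other LTR families that share only these letters, and these made up 14284 of the rows. The names MMVL30-int and RLTR6, labelled VL30 names here, held 3161 loci. The MLV-like names (MuLV-int, RLTR4_MM-int and RLTR4_Mm) held 1063, together 4224. The description below turns on these 4224 loci, with the RLTR40 to RLTR49 loci given separately. Sums and name tests are given with and without 1 MMVL30-int locus at chr14:50807519-50807567 (mm10).

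RNA-Seq had been performed on whole testes of C57BL/6 embryos at E14.5, with 1 pair of testes and so 1 embryo per library. The wild-type (WT) group has 3 libraries, and the Mutant group has 4 from embryos homozygous for Glis3 zf5, a germline allele with a deletion of an exon and parts of the introns beside it, which is carried by all cells and not by germ cells alone. Ribosomal RNA was removed and no step selected poly-A tails, so RNAs made by polymerase III were sequenced beside mRNA. Read counts per locus were made from reads with 1 place in the genome and without strand, and summed to between 3454317 and 4670830 reads per library over all loci. The targeted gene, Glis3, read 7.63, 6.89 and 2.91 in the WT libraries, in replicate order, as FPKM (fragments scaled by transcript length and library size), against 3.86, 3.26, 2.9 and 2.66 in the mutants. The third WT library therefore lay at the level of the mutants in Glis3 and is called the library labelled WT replicate 3. By qPCR, the study found Glis3 mRNA of wild-type testes back at its baseline at E14.5. The genotype of this library was not tested here. In whole testis, fewer cells of a type and less RNA per cell cannot be told apart.

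A VL30 or MLV-like copy starts as a provirus with an identical LTR at each end. The LTR holds the promoter and the polyadenylation signal, and the internal region of an MLV codes for Gag, Pol and Env, while VL30 internal regions have lost their coding capacity and are carried by the proteins of other retroviruses. Recombination between both LTRs leaves a solo LTR. In the fetal male germline these repeats pass through a phase of low DNA methylation, after which silencing by H3K9 methylation through KRAB zinc finger proteins, TRIM28 and SETDB1, by DNA methylation and by piRNAs is known to act on such elements.

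RepeatMasker splits 1 copy into several rows, so the names of a copy had to be read together. Rows on 1 strand that lay within 200 bases of each other formed 2507 chains, of which 1629 held a single row and 343 had an LTR at both ends. Among the 646 rows of RLTR6B_Mm, 76.5% shared a chain with RLTR6-int. RLTR6_Mm shared a chain with MMVL30-int in 65.4% of its 237 rows, and RLTR6C_Mm in 47.1% of its 102 rows. RLTR4_Mm shared one with RLTR4_MM-int in 68.6% of 239 rows and with MuLV-int in 30.5%. The VL30 names thus covered copies of MMVL30-int beside RLTR6_Mm or RLTR6C_Mm LTRs as well as copies of long RLTR6-int rows beside RLTR6B_Mm LTRs. With an LTR at both ends, MMVL30-int copies between RLTR6_Mm had a median of 4954 bases and RLTR6-int copies between RLTR6B_Mm 8754. The label is one of names, and whether the longer RLTR6-int copies are VL30 elements was not tested.

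An example with MMVL30-int lies in an intron of Abi1, a gene of actin regulation, from an RLTR6_Mm row at chr2:23009729-23010331 to another at chr2:23014422-23015044, all on the minus strand, with a gap of more than 200 bases inside it. It is shown because a RefSeq promoter window (GRCm38.p6, chr2:23014257-23014556, of the predicted gene Gm52502) crosses the edge between its upstream RLTR6_Mm row and its RLTR6-int row. The window is given in the direction of the element, on the minus strand. The 135 bases inside the RLTR6_Mm row are in capitals and the bases after them in lower case. The first lower-case base lies between both rows and the others lie in the RLTR6-int row. These are row edges of RepeatMasker, and where the LTR itself ends was not tested.

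VL30 copy in Abi1: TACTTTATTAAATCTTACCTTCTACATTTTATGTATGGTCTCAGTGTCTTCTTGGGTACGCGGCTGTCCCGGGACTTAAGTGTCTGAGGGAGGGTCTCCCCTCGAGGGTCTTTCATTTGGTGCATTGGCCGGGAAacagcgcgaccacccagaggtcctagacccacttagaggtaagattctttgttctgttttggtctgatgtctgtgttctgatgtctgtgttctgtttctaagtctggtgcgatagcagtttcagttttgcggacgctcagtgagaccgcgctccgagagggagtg

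Most reads of this copy came from its interior. The MMVL30-int row at chr2:23010332-23013175 had 146, 143 and 75 reads in WT replicates 1 to 3 and 81, 124, 86 and 111 in mutant replicates 1 to 4. The LTR row whose end is printed had between 1 and 5 reads in each library, and the RLTR6-int row between them had 16, 9 and 5 reads against 9, 5, 3 and 7. The groups overlapped in each of these rows, and the MMVL30-int row had a log2 fold change of -0.01 (SE 0.18, adjusted p = 0.987, edgeR). Only 59 of 32851 RefSeq promoter windows overlapped a VL30 or MLV-like row, belonging to 53 genes, of which 50 had provisional names and 4 were in the gene table.

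The locus at chr14:50807519-50807567 is 49 bases long and is named MMVL30-int on the plus strand. All 49 bases lie inside Rpph1 (chr14:50807449-50807767, minus strand), which makes the RNA of RNase P, the polymerase III-transcribed ribozyme that trims tRNA precursors. They also lie in an annotated untranslated exon of a Ccnb1ip1 transcript. The middle 30 bases of the locus, read on the plus strand from the Rpph1 transcript of GENCODE M21 (chr14:50807528-50807557), are shown because the locus took most of the reads given to VL30 in all libraries but mutant replicate 2.

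Locus in Rpph1: gtgagtctgttccaagctccggcgagggag

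The locus had 68673, 257661 and 252005 reads in WT replicates 1 to 3 and 77262, 2486, 261959 and 263183 reads in mutant replicates 1 to 4. High and low libraries occurred in both groups, and the lowest by far was mutant replicate 2. Scaled to CPM (reads per 1e6 of the effective library size), the highest library exceeded the lowest 112-fold. The locus ranked 1 among all loci of the table by reads, took from 0.072% to 7.02% of all reads in loci and from 41.8% to 98.8% of the reads of MMVL30-int, and had a mean of 169033 reads against 714 for the next member locus. Rpph1 had 42714, 159008 and 145711 FPKM in WT and 58978, 13630, 174222 and 172125 FPKM in mutant replicates. Ranked by level, the 7 libraries stood in the same order by the locus and by Rpph1. No difference between the groups was detected. Exact permutation of the 7 libraries (35 splits, two-sided) gave p = 0.886 for the locus and p = 0.857 for Rpph1, and the smallest p this design allows is 0.0286. The quasi-likelihood test of edgeR gave the locus a log2 fold change of -0.16 with an SE of 0.13 (adjusted p = 0.98), an SE far below the spread of its libraries, since this test pools the spread over loci of like abundance. Whether this test called the locus depended on single libraries, with adjusted p-values of 4.9e-05 without mutant replicate 3 and 0.00386 without WT replicate 1, and it was 0.0278 when no TMM factors were used.

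**Figure D1:**
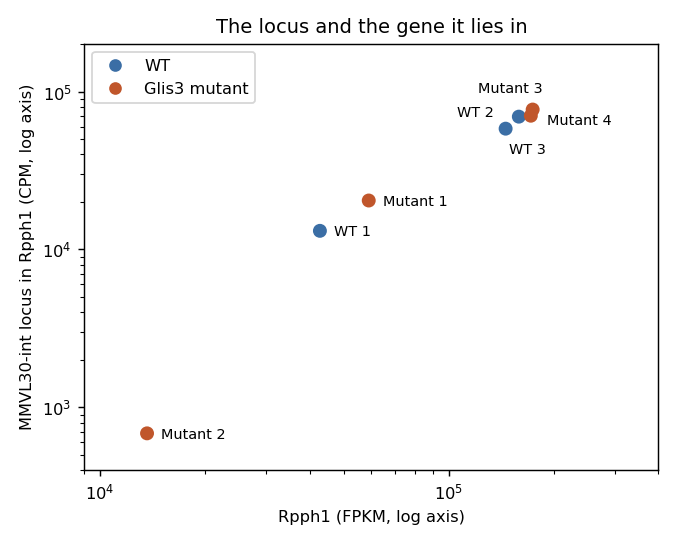
Each point is 1 library, with Rpph1 in FPKM on the x axis and the MMVL30-int locus inside it in CPM on the y axis, both on log scales. The 7 libraries fall in 1 order on both axes, from mutant replicate 2 (13630 FPKM, 684 CPM) to mutant replicate 3 (174222 FPKM, 76869 CPM).

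Summed over the 4224 VL30 and MLV-like loci, the level was 14917, 71586 and 60067 CPM in WT replicates 1 to 3 and 22543, 2866, 79157 and 72511 CPM in mutant replicates 1 to 4. These sums followed the Rpph1 locus. Without it the sums were 1808, 2276 and 1899 CPM in WT and 2143, 2182, 2287 and 2252 CPM in mutant replicates, from 7795 to 9473 reads per library. The means were 1994 ± 248 CPM (SD, n = 3) and 2216 ± 65.4 CPM (SD, n = 4), a log2 ratio of 0.15. WT replicate 2 lay inside the mutant range while WT replicate 1 and the library labelled WT replicate 3 lay below it. With the locus the log2 ratio was -0.14. Over all 18508 rows of the rule, the log2 ratio was -0.13 with the locus and 0.06 without it. These sums are descriptions of a chosen list and carry no test.

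**Figure D2:**
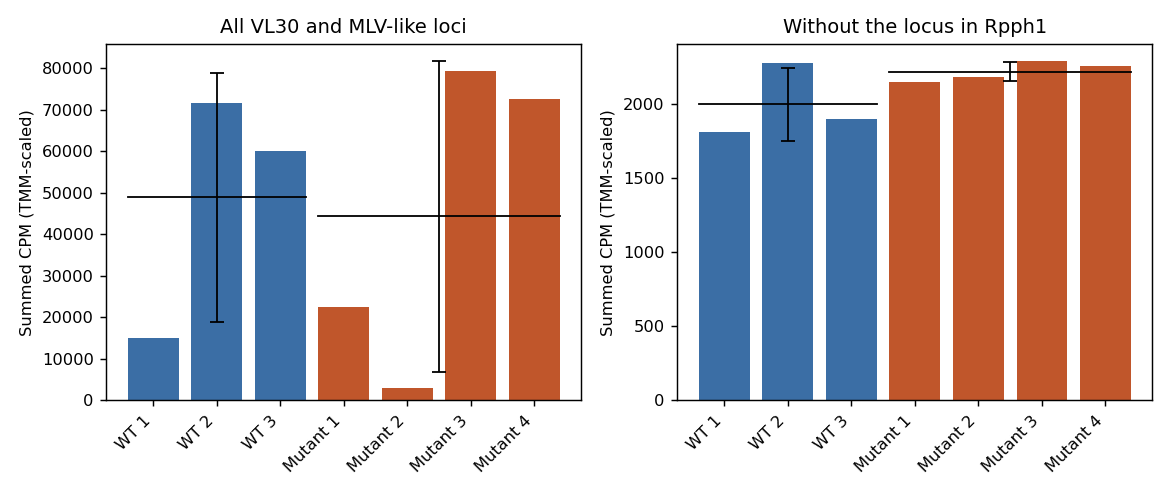
Bars give the CPM summed over all VL30 and MLV-like loci in each library, with the locus in Rpph1 (left) and without it (right); horizontal lines are group means and error bars 1 SD (n = 3 WT, n = 4 mutant). On the left the bars run from 2866 to 79157 CPM, and on the right from 1808 to 2287 CPM.

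The sum over VL30 names alone was 14473, 71070 and 59605 CPM in WT and 22027, 2367, 78589 and 72025 CPM in mutant replicates with the locus. Without it the sum was 1364, 1760 and 1437 CPM in WT and 1628, 1683, 1720 and 1766 CPM in mutant replicates. WT replicate 2 was again as high as the mutants. The MLV-like names summed to 443.8, 516 and 461 CPM in WT and 516, 499, 568 and 486 CPM in mutant replicates, with groups that overlapped. RLTR40 to RLTR49 summed to 2720, 3109 and 2672 CPM in WT and 2745, 2691, 2909 and 2889 CPM in mutant replicates, and their means of 2834 ± 239 and 2809 ± 107 CPM differed by less than the spread of the libraries.

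Levels of single element names were tested as sums over loci with edgeR for all 862 names with a mean of at least 1 read, and adjusted p-values under 0.05 were taken as calls. Of the 34 names of the rule that were tested, 0 were called, as were 0% of all 862 names. An unadjusted p under 0.05 was found for 5 of the 34 names, against 17.3% of all names. Name sums leaned upward in general, as 80.5% of the 862 names had a positive log2 fold change, against 20 of the 34, and the median over all names was 0.09. Without the Rpph1 locus 0.116% of all names were called and 16.2% had an unadjusted p under 0.05, against 0 and 6 of the 34 member names.

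MMVL30-int, the VL30 interior, had a log2 fold change of -0.15 (SE 0.92, adjusted p = 0.932, edgeR) with the Rpph1 locus. Without that locus its sums were 787, 1054 and 779 CPM in WT and 903, 994, 949 and 1052 CPM in mutant replicates. These CPM used library sizes fitted again without the locus, so they do not add up with the other sums. WT replicate 2 was at the top of the mutant range, and the other libraries labelled WT were below all mutants. The log2 fold change became 0.16 (SE 0.1, adjusted p = 0.457, edgeR), so the direction turned with 1 of 956 rows. When WT replicate 2 was left out as well, the log2 fold change was 0.32 and the adjusted p was 0.0284 (edgeR). In that fit 25 of all 862 names were called, all of them higher in the mutant. Adjusted p-values of MMVL30-int from 0.468 to 0.76 (edgeR) were found on leaving out any other library.

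RLTR6_Mm, the LTR of MMVL30-int copies, had 47.5, 57.0 and 45.2 CPM in WT and 65.0, 57.8, 59.9 and 58.7 CPM in mutant replicates. No mutant was as low as any of the libraries labelled WT, although the step from WT replicate 2 was small. Its log2 fold change was 0.28 (SE 0.1, adjusted p = 0.214, edgeR). RLTR6B_Mm, the LTR of RLTR6-int copies, had 34.2, 39.5 and 35.3 CPM in WT and 44.6, 47, 41.7 and 43.8 CPM in mutant replicates. Here too the groups did not overlap, and the log2 fold change was 0.29 (SE 0.09, adjusted p = 0.205, edgeR). Groups in which all mutants were higher were found in these 2 of the 8 VL30 and MLV-like names and in 16.7% of all 862 names, and the reverse was found in 0 of the 8 and in 0% of all names.

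The other names of this kind had overlapping groups. RLTR6-int had 556, 642 and 599.9 CPM in WT and 643, 623, 695 and 644 CPM in mutant replicates (log2 fold change 0.12, SE 0.06, adjusted p = 0.314, edgeR). RLTR6C_Mm was low, with 3.3 to 5.87 CPM per library, and its log2 fold change of -0.11 had an SE of 0.24. RLTR4_Mm, the MLV LTR, had 98.7, 127 and 107 CPM in WT and 130, 123, 139 and 143 CPM in mutant replicates (log2 fold change 0.27, SE 0.1, adjusted p = 0.214, edgeR). WT replicate 2 was the only library labelled WT inside its mutant range, and without that library RLTR4_Mm had an adjusted p of 0.0373 (log2 fold change 0.36, edgeR), which became 0.0507 when the Rpph1 locus was left out as well. Without WT replicate 2, 60 of all 862 names were called, all of them higher in the mutant, and 25 when the Rpph1 locus was left out too. The MLV interiors had log2 fold changes of 0.14 (SE 0.08) for MuLV-int and 0.04 (SE 0.08) for RLTR4_MM-int. Without the Rpph1 locus, which sets part of the scaling of all names, the log2 fold changes were 0.25 for RLTR6_Mm, 0.27 for RLTR6B_Mm, 0.10 for RLTR6-int, -0.14 for RLTR6C_Mm, 0.25 for RLTR4_Mm, 0.12 for MuLV-int and 0.02 for RLTR4_MM-int.

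**Figure D3:**
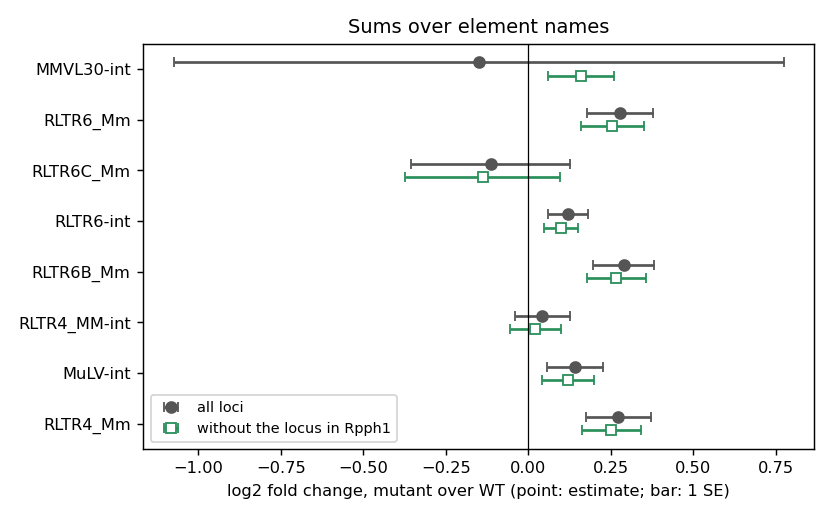
Points give the log2 fold change, mutant over WT, of the 8 VL30 and MLV-like element names with bars of 1 SE from edgeR, with all loci (filled circles) and without the locus in Rpph1 (open squares). The bar of MMVL30-int shrinks from an SE of 0.92 to 0.1, and its estimate moves from -0.15 to 0.16.

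Reads were spread unevenly over the loci. Of the 4223 VL30 and MLV-like loci other than the one in Rpph1, 2220 had no read in any library, 625 had a mean of at least 1 read, and the 10 loci with the most reads held 33.5% of the reads. Loci overlapping annotated exons were 4.03% of the rows and held 31.8% of the reads, while intergenic loci were 78.2% of the rows and held 44.4%. The intergenic VL30 and MLV-like loci summed to 758, 996 and 799 CPM in WT and 971, 998, 1011 and 1082 CPM in mutant replicates. WT replicate 2 was between the first and second mutant values, and the other libraries labelled WT were below all mutants. Exonic loci had 572, 717 and 661 CPM in WT and 670, 667, 756 and 665 CPM in mutant replicates, and the groups overlapped. Among the MLV-like names alone, intergenic loci had 144, 184 and 160 CPM in WT and 205, 184.3, 209 and 193 CPM in mutant replicates, so that the groups were apart by the smallest of steps. When loci inside genes were left out, 3 of 34 member names were called (RLTR40, RLTR45 and RLTR47, with log2 fold changes of 0.44, 0.62 and 1.25), against 7.83% of the 830 names then tested, and the median over all names was 0.29. None of the 3 was a VL30 or MLV-like name.

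Several of the loci with most reads lay in host transcripts. A chain of 6 RLTR6-int rows at chr11:86201847-86208920 lies in Brip1os, an antisense non-coding gene, and had 244, 330 and 315 CPM in WT and 298, 295, 351 and 295 CPM in mutant replicates. The chain at chr5:23700579-23709245, MuLV-int between RLTR4_Mm rows in the non-coding gene AI506816, had 77.5, 82.6 and 88.6 CPM in WT and 84.2, 91.6, 100.9 and 78.2 CPM in mutant replicates. Groups overlapped in both. Brip1os itself had from 15.1 to 17.8 FPKM over the 7 libraries, and AI506816 from 1.37 to 3.68 FPKM. Outside annotated genes, the MMVL30-int locus at chr14:32117142-32119968 had 59.4, 76.9 and 57.2 CPM in WT and 67.6, 85, 68.1 and 66.7 CPM in mutant replicates, again without separation. The MMVL30-int locus at chr6:18843363-18846295, in exons of the lincRNAs Gm20186 and Gm26809, had 50, 78.5 and 48.2 CPM in WT and 67.9, 66.8, 58.4 and 71 CPM in mutant replicates. RLTR6-int at chr2:150336878-150337489, in introns of 3300002I08Rik and Gm10130, and MMVL30-int at chr18:26004938-26006275, between genes, also had overlapping groups. None of the 8 VL30 and MLV-like loci with the highest mean, after the one in Rpph1, passed the locus test. These 8 were chosen after values were seen, since the rule for named loci ranked all members together.

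Of those loci, the RLTR4_Mm row at chr17:35000213-35000512 was the one with separate groups. This intergenic MLV LTR had 48.3, 70.5 and 60.7 CPM in WT and 83.7, 78.9, 75.7 and 80.4 CPM in mutant replicates. The mutants were the 4 highest libraries, with a log2 fold change of 0.42 (SE 0.16, adjusted p = 0.791, edgeR).

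A VL30 copy at chr11:86811742-86816395, an MMVL30-int row between RLTR6C_Mm and RLTR6_Mm, varied between libraries in another way. It had 11.1, 36.6 and 35.1 CPM in WT and 17.7, 20.9, 38.1 and 43.8 CPM in mutant replicates. WT replicate 2, the library labelled WT replicate 3 and mutant replicates 3 and 4 were high, and the groups overlapped. These were also the libraries with the most Rpph1, and what that has to do with the reads of this copy was not tested.

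Copies with an LTR at both ends were compared by kind. The 229 copies of RLTR6-int between RLTR6B_Mm LTRs had a median length of 8754 bases and 0.149 reads per kilobase and library, and 26 of them had no read. The 13 copies of MMVL30-int between RLTR6_Mm LTRs, with a median of 4954 bases, had 9.03 reads per kilobase. Copies of RLTR4_MM-int between RLTR4_Mm LTRs numbered 59, with a median of 8970 bases and 1.13 reads per kilobase. Reads that fit more than 1 place were discarded, so levels per kilobase of copies that differ in how alike they are to others cannot be compared as transcript levels.

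Within the long RLTR6-int kind, the 229 copies summed to 60.3, 54.6 and 62.6 CPM in WT and 86.9, 77, 88.3 and 83 CPM in mutant replicates. All mutants were above all libraries labelled WT, and here the library labelled WT replicate 3 was on the side of the other WT libraries. The means were 59.2 ± 4.1 CPM (SD, n = 3) and 83.8 ± 5.05 CPM (SD, n = 4), a log2 ratio of 0.50. These were 203 to 329 reads per library. Of the 71 copies with a mean of at least 1 read, 57 had a higher mean in the mutant and 14 a lower one. Among all single loci tested, 51.2% had a positive log2 fold change, and 55.3% of those outside genes. Those shares are over rows and not over copies. The copies were read in the same 7 libraries and are not replicates. Without the 7 copies with the most reads the sums were 32.6, 28.2 and 35.1 CPM against 52.0, 41.3, 56.0 and 57.4 CPM, and over the 202 copies outside annotated genes they were 30.5, 26.9 and 31.2 CPM against 51.5, 39.6, 52.2 and 49.9 CPM. Groups stayed apart in both. The 7 copies with the most reads had 27.7, 26.4 and 27.5 CPM against 34.9, 35.8, 32.3 and 25.6 CPM, and there the groups overlapped, as mutant replicate 4 was the lowest library. The 27 copies inside genes had means of 29.6 ± 1.85 and 35.5 ± 1.8 CPM. This kind of copy was singled out after its values were seen, so no test is given. The log2 ratio was 0.71 over the copies outside genes and 0.26 over those inside. For comparison, the median log2 fold change of all names outside genes was 0.29. That median is over fitted values of name sums, while the ratios are of CPM summed over chosen copies, so the measures differ.

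The other kinds overlapped between the groups. The 13 RLTR6_Mm copies summed to 123, 175 and 108 CPM in WT and 155, 154, 148 and 178 CPM in mutant replicates, with WT replicate 2 near the top. The 59 RLTR4_Mm copies of RLTR4_MM-int summed to 122, 140 and 134 CPM in WT and 144, 146, 161 and 113 CPM in mutant replicates, the last being the lowest of all. The 12 copies of MuLV-int had 86.1, 94.96 and 98.8 CPM in WT and 97.2, 103, 118 and 92.6 CPM in mutant replicates.

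**Figure D4:**
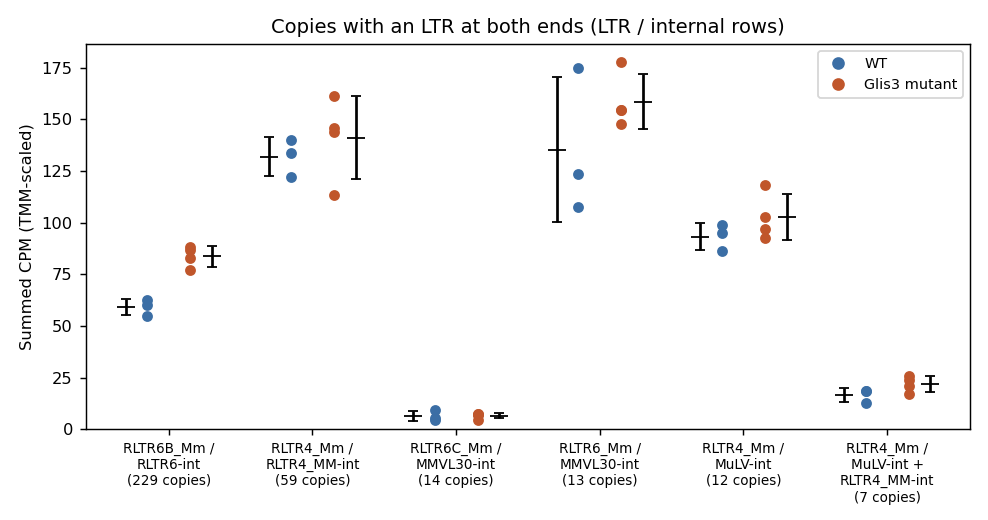
Points give the CPM summed over all copies of 1 kind in each library, for kinds of at least 5 copies with an LTR at both ends, with the mean and 1 SD beside them (n = 3 WT, n = 4 mutant). The RLTR6B_Mm and RLTR6-int copies are at 54.6 to 62.6 CPM in the libraries labelled WT and at 77 to 88.3 CPM in the mutants.

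Single loci were tested with edgeR over the whole table, where at least 1 read was asked for on average, at an adjusted p under 0.1. Of the 1840 member loci that passed this filter, 10 were called, 1 higher and 9 lower in the mutant, against 0.0807% of all 464695 loci tested (0.0213% higher and 0.0594% lower). An unadjusted p under 0.05 was found in 145 of the 1840 loci and in 4.74% of all loci. Only 1 of the 626 VL30 and MLV-like loci tested was called, and the other 9 were RLTR40 to RLTR49 loci, 6 of them RLTR44-int. The median log2 fold change was 0.18 over 454 VL30 loci, -0.02 over 172 MLV-like loci and -0.08 over 1214 RLTR40 to RLTR49 loci, against 0.02 over all loci. A positive value was found in 63% of the VL30 loci, 49.4% of the MLV-like loci and 51.2% of all loci. Of the VL30 and MLV-like loci outside genes 64.7% were positive, against 55.3% of all loci outside genes.

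The locus called among the VL30 names was RLTR6-int at chr1:191158709-191161381, 2673 bases between genes. It had 43, 26 and 2 reads in WT and 5, 5, 3 and 5 reads in mutant replicates. WT replicates 1 and 2 were high and the library labelled WT replicate 3 was below all mutants, so the groups overlapped (p = 0.143 by exact permutation). With edgeR the log2 fold change was -2.07 (SE 0.39, adjusted p = 0.00048). DESeq2, the tool of the study, gave an adjusted p of 1.0, and edgeR without WT replicate 1 gave 0.811. The germ cell gene Mael was also high in WT replicates 1 and 2 and at the mutant level in the library labelled WT replicate 3, though in another order, with 67.1, 128 and 18.8 FPKM in WT and 30.6, 18.2, 15.7 and 12.9 FPKM in mutant replicates, and the part of germ cell content in the reads of the locus was not tested.

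Apart from the locus in Rpph1, further loci of the VL30 names were called only when a library was left out. Counting the one in Rpph1, 3 VL30 and MLV-like loci were called without each of the libraries labelled WT. Over all loci, 345, 193 and 617 were called without WT replicate 1, WT replicate 2 and the library labelled WT replicate 3, against 375 with all libraries. MMVL30-int at chr18:11643142-11646030 had 4, 38 and 19 reads in WT and 26, 19, 41 and 30 reads in mutant replicates, with WT replicate 1 lowest, and had an adjusted p of 0.0141 (edgeR) without WT replicate 2. MMVL30-int at chr6:41197707-41200061 had 14, 1 and 0 reads in WT and 18, 14, 4 and 5 reads in mutant replicates, and had an adjusted p of 0.00436 (edgeR) without WT replicate 1. In the other direction, MMVL30-int at chr12:112017388-112019671 had 3, 16 and 4 reads against 3, 0, 0 and 1. The groups of all 3 loci overlapped, and these loci were named after their values were seen.

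Of the RLTR44-int loci, the one at chr12:55552212-55554761 had 20, 94 and 4 reads in WT and 11, 4, 2 and 3 reads in mutant replicates (log2 fold change -2.77, SE 0.34, adjusted p = 6.72e-12, edgeR). The locus at chr3:8020058-8022677 had 18, 80 and 10 reads in WT and 10, 0, 7 and 8 reads in mutant replicates, where a count of 0 allows up to 3 reads. In both, WT replicate 2 stood far above the others and the library labelled WT replicate 3 was within the mutant range. The locus at chr9:97276486-97278480 was the one RLTR44-int call with separate groups, with 18, 42 and 6 reads against 1, 3, 3 and 3. The other 3, at chrX:8853867-8855901, chr10:35482276-35484468 and chr14:74308125-74310007, had overlapping groups and from 24 to 77 reads in WT replicate 2. All 6 were lost without WT replicate 2, with adjusted p-values from 0.702 to 0.989. Their name sum had 96.6, 229 and 79.6 CPM in WT and 91.1, 79.8, 74.8 and 87.8 CPM in mutant replicates (log2 fold change -0.68, SE 0.3, adjusted p = 0.28, edgeR). Over the 137 RLTR44 loci tested, 51.1% had their highest level in WT replicate 2, against 14.8% of all other loci.

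The remaining calls were 2 RLTR40 loci and 1 RLTR45-int locus. RLTR40 at chrY:90811149-90811351, in an intron of Gm47283, had 23, 24 and 36 reads in WT and 0, 2, 6 and 1 reads in mutant replicates. It was the clearest difference of the set, with a log2 fold change of -3.29 (SE 0.43, adjusted p = 4.66e-10, edgeR). DESeq2 gave this locus an adjusted p of 0.00445, and it was the only member called there. The mutants were the 4 lowest libraries, as in 2.84% of all loci tested. Exact permutation gave p = 0.0286, the smallest this design allows. The locus was picked by the edgeR test on the same reads, so neither DESeq2 nor the permutation is separate support. RLTR40 at chr1:153443143-153443764, in an exon of Gm37669 and an intron of Shcbp1l, had 46, 55 and 6 reads against 9, 6, 6 and 5 and was lost without WT replicate 2 (adjusted p = 0.165, edgeR). Shcbp1l itself had 2.95, 5.17 and 0.527 FPKM against 2.09, 0.591, 0.652 and 0.7 FPKM, with the same library labelled WT at the mutant level. RLTR45-int at chrX:78664091-78665842 was the 1 locus called higher, with 4, 0 and 0 reads in WT and 13, 24, 0 and 0 reads in mutant replicates. Its reads came from mutant replicates 1 and 2, and its adjusted p of 0.00923 became 0.922 without mutant replicate 2.

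**Figure D5:**
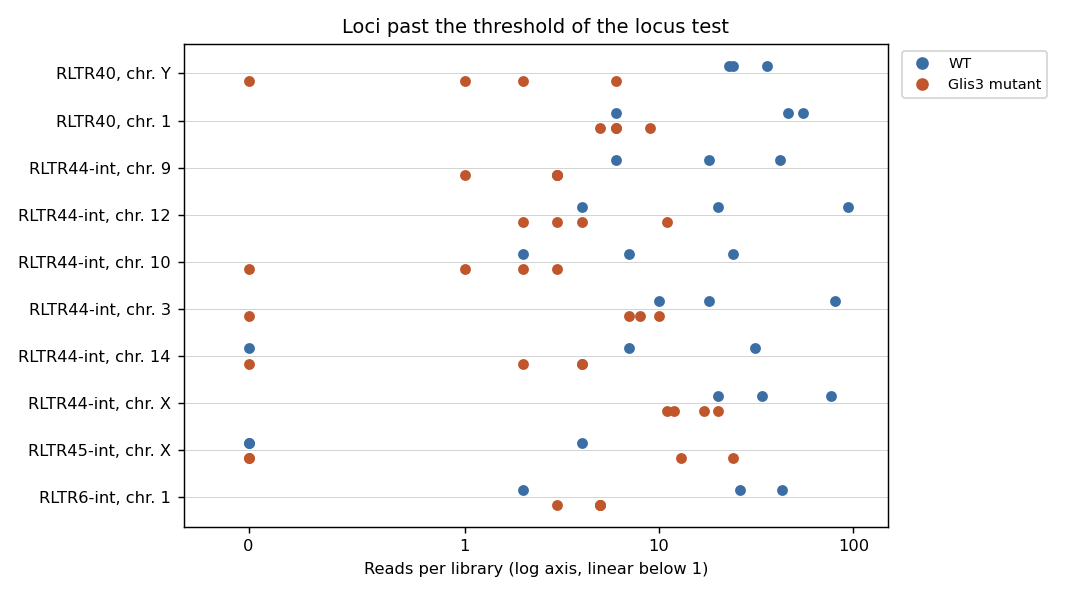
Points give the reads of each library at the 10 member loci called by the locus test, on a log axis that is linear below 1, with WT above and mutant below each line. Only RLTR40 on chromosome Y and RLTR44-int on chromosome 9 have groups that do not overlap.

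Of the 626 VL30 and MLV-like loci tested, 36 had all mutants higher and 10 had all mutants lower, against 3.12% and 2.84% of all loci. The largest positive differences with separate groups, among loci with a mean of at least 10 reads, were small. RLTR4_MM-int at chr1:34432487-34432849, in an exon of the lincRNA Gm37233, had 4.58, 5.11 and 4.39 CPM in WT and 8.71, 8.8, 7.92 and 9.34 CPM in mutant replicates (log2 fold change 0.89, SE 0.27, adjusted p = 0.471, edgeR). The MMVL30-int locus at chr8:72226308-72228228, between genes, had 6.87, 7.53 and 5.77 CPM against 9.24, 12.1, 9.98 and 9.34 CPM. The others were RLTR6B_Mm at chr13:62174169-62174721 in an intron of Zfp808, which encodes a zinc finger protein, and MMVL30-int at chr2:75638672-75642371 and chr17:21475317-21477755. Their log2 fold changes were 0.66, 0.62 and 0.60, and none passed the test.

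Separate groups with lower mutants were rarer among these names. MMVL30-int at chr12:24081118-24083953, in an intron of 9030624G23Rik, had 7.06, 6.46 and 6.92 CPM in WT and 3.43, 4.68, 4.4 and 3.47 CPM in mutant replicates (log2 fold change -0.77, SE 0.29, adjusted p = 0.775, edgeR). RLTR4_MM-int at chr2:30813432-30814948, in an exon of Ntmt1, had 12.8, 13.2 and 13.6 CPM against 10, 11.3, 10.3 and 8.81 CPM. Both had narrow spreads within groups, but neither passed the test. Among the RLTR40 to RLTR49 loci, RLTR40 at chr4:21871708-21872365, in an intron of Pnisr, went from 92.8 ± 4.62 CPM (SD, n = 3) to 66.7 ± 10.1 CPM (SD, n = 4) with an adjusted p of 0.669, and RLTR42-int at chr19:45522648-45523243, in an intron of Btrc, went from 3.34 ± 0.561 to 1.7 ± 0.421 CPM with an adjusted p of 0.846. Apart from the Pnisr locus, the RLTR40 to RLTR49 loci with the highest means lay in exons of Etnk1, Tfrc and Tfpi, with means from 62.3 to 185 CPM in WT and from 80.4 to 173 CPM in mutant replicates.

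Genes that act on these elements were read from the FPKM table with limma, over 13988 genes that reached 0.5 FPKM on average, at an adjusted p under 0.05. No gene of the lists was called, against 0.00715% of all genes, and 17% of all genes had an unadjusted p under 0.05. Without the library labelled WT replicate 3, 722 of 14019 genes were called, 560 of them lower. Without any other single library, from 1 to 5 genes were called. Of 31 genes of H3K9 methylation and ERV silencing tested, 25 had lower means and 10 an unadjusted p under 0.05. Setdb1, the H3K9 methyltransferase recruited by TRIM28, had 49.0, 43.0 and 41.0 FPKM in WT and 38.3, 38.4, 36.5 and 36.9 FPKM in mutant replicates (log2 fold change -0.23, SE 0.07, adjusted p = 0.194, limma). The mutants were the 4 lowest libraries. Zfp42, a zinc finger protein of pluripotent and germ cells, had 9.09, 7.61 and 6.33 FPKM against 3.13, 2.76, 3.97 and 3.05 FPKM. Its log2 fold change was -1.13 (SE 0.15, adjusted p = 0.109, limma). Without the library labelled WT replicate 3, the lowest WT library for Zfp42, its adjusted p was 0.00681 (limma). The methyltransferase Suv39h2 also had separate groups, with 14.8 to 16.4 FPKM in WT and 12.6 to 13.2 FPKM in mutant replicates, as did Rif1, Pphln1 and, in the other direction, H3f3b. Trim28, with 176 to 280.2 FPKM, and H3f3a overlapped. Groups with all mutants lower were found in 9 of the 31 genes and in 7.59% of all genes, and with all mutants higher in 1 and in 7.31%.

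Of the 11 genes of DNA methylation, 9 had lower means, and the log2 fold changes of the list ranged from -1.61 to 0.22. The gene at -1.61 is not among those named below. Hells, a chromatin remodeller needed for methylation of repeats, had 112, 87.6 and 102 FPKM in WT and 68.3, 75.3, 83.3 and 76.7 FPKM in mutant replicates (log2 fold change -0.40, SE 0.1, adjusted p = 0.169, limma). Uhrf1, which brings DNMT1 to replicated DNA, had 45, 39.2 and 44.6 FPKM against 54.6, 52.4, 47.9 and 45.5 FPKM, so the groups of both genes were separate, in opposite directions. Tet2 was lower, with 7.27 to 8.91 FPKM against 6.57 to 7.2 FPKM, and Dnmt1, at 41.5 to 61.8 FPKM, overlapped. Of the 11 genes, 2 had all mutants lower and 1 had all mutants higher, against 7.59% and 7.31% of all genes. All 18 piRNA pathway genes tested had lower means (the median of their log2 fold changes was -1.09), 10 of them with an unadjusted p under 0.05. The groups were separate in 3 of them, the helicase gene Ddx4 (log2 fold change -1.08), Tdrkh (-0.84) and Pld6, and overlapped in Mael and Fkbp6. All mutants were lower in 7.59% of all genes. With all libraries the adjusted p was 0.136 for Ddx4 and 0.133 for Tdrkh (limma). Without the library labelled WT replicate 3, the lowest WT library for both genes, these were 0.00391 and 0.00643 (limma). Leaving out the lowest WT library widens the difference, and in that fit 722 of 14019 genes were called.

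Of the 4 receptors through which MLVs enter cells, 3 had higher means. Slc20a2, the receptor of amphotropic MLV, had 14.1, 11.6 and 13.6 FPKM in WT and 15.8, 15.6, 15.4 and 14.2 FPKM in mutant replicates (log2 fold change 0.21, SE 0.08, adjusted p = 0.252, limma). Slc7a1, the receptor of ecotropic MLV, had 3.86, 3.84 and 3.6 FPKM against 4.28, 4.26, 4.66 and 4.09 FPKM (log2 fold change 0.18, SE 0.08, adjusted p = 0.321, limma). Both had separate groups, whereas Xpr1, at 5.14 to 5.93 FPKM, and Slc20a1, at 52.6 to 61.7 FPKM, overlapped. Of 15 restriction factors tested, Zc3hav1, which binds and degrades retroviral RNA, was higher in each mutant, with 14.3 to 15.7 FPKM in WT and 15.9 to 18.4 FPKM in mutant replicates (log2 fold change 0.20). Nxf1, an RNA export factor, was lower in each mutant, with 54.1 to 56.5 FPKM against 45.3 to 52.4 FPKM (log2 fold change -0.16). Serinc3 and Bst2, the most abundant of the list, overlapped. All mutants were higher in 2 of the 4 receptors, in 1 of the 15 restriction factors and in 7.31% of all genes. All mutants were lower in 0 of the 4, in 1 of the 15 and in 7.59% of all genes.

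Cell type markers differed between libraries. All 7 germ cell markers tested had lower means, and their mean log2(FPKM + 0.5) was 6.02, 5.55 and 4.93 in WT and 4.9, 4.8, 4.81 and 4.66 in mutant replicates. The library labelled WT replicate 3 stood next to the mutants. Dazl had 271, 211 and 167 FPKM against 98.6, 116, 141 and 115 FPKM, and Sall4 was also separate, while Dppa3 and Pou5f1 overlapped. All mutants were lower in 3 of the 7 markers, against 7.59% of all genes. All 5 fetal Leydig cell markers had higher means, with list means of 8.02 to 8.68 in WT and 8.67 to 8.91 in mutant replicates. Of the 5, Cyp11a1 and Insl3 had all mutants higher, against 7.31% of all genes. The 5 Sertoli cell markers (Amh, Dhh and Gata4 among them) and the 4 endothelial markers ranged from 4.99 to 5.52 and from 3.74 to 3.93 over all libraries. All 4 macrophage markers had higher means, with 2.07 to 2.29 in WT and 2.29 to 2.59 in mutant replicates. The 4 skeletal muscle markers ranged from -0.25 to 2.28 in WT and from -0.31 to 2.96 in mutant replicates, lowest in WT replicate 2, the library labelled WT replicate 3 and mutant replicate 3. Erythroid markers ranged from 6.65 to 9.13, highest in WT replicate 2, and mesonephric markers from 1.44 to 1.87. The part of any of these in the VL30 and MLV-like levels was not tested.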

How the data were processed

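RNA-Seq of E14.5 testes gave 2 tables for 3 WT and 4 mutant libraries of C57BL/6 embryos. The authors mapped the reads with TopHat2 2.0.12 to mm10 without strand, kept uniquely mapped reads and counted them with HTSeq per RepeatMasker LINE, SINE and LTR locus, and these raw counts were used as deposited. The deposited FPKM were made by the authors with Cuffnorm on RefSeq genes and have no depth of their own. Both headers lack a tab between the third WT and the first mutant name, and columns were read in the order of those names.

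The members and lists were chosen with earlier results of these data known. Sums over names, and single loci that reached 1 read on average, were fitted with edgeR 4.0.16 (quasi-likelihood, TMM, Benjamini-Hochberg adjustment over the whole table, two-sided). CPM are counts scaled by the effective library sizes of the locus fit. The sums of MMVL30-int without the Rpph1 locus used library sizes fitted again without it. Genes were fitted with limma 3.58.1 (R 4.3.3) on log2(FPKM + 0.5), which understates differences of low genes. Adjusted p-values under 0.1 for loci, the threshold the authors used with DESeq2, and under 0.05 for names and genes were calls. Mean differences of single values were tested by exact permutation. Scripts were tested on simulated counts with known changes. Alternatives covered DESeq2 1.42.0, scaling, filters, pseudocounts, a replicate block and leaving out each library. Robust priors, bias-adjusted deviances, leaving out the Rpph1 locus together with a library or the block, and the sums over VL30 and MLV-like names alone were added after the data were seen.

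Loci named were the one in Rpph1, the 8 with the highest mean CPM, all calls, and the 5 largest differences in each direction among loci with a mean of at least 10 reads and no overlap of groups. The same for VL30 and MLV-like names alone was added after values were seen. Of the gene lists, genes called, up to 5 whose groups did not overlap and the 3 with the highest mean were named. bedtools 2.31.1 placed loci on GENCODE M21 genes. Other loci's sequences were not read, as no genome of this build was used here. Counts carry counting error, and a count of 0 allows up to 3 reads. The study's libraries each came from 1 embryo, so the spread between libraries is that between embryos. The p-values of edgeR and limma rest on spreads pooled in part over loci, names or genes. At a single locus they can therefore understate the spread between embryos.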

Additional observations from a re-analysis of the deposited data

Results flagged for a closer look

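Among the 51 named values examined for 1 library far from the others of the mutant group (n = 4), 4 stood out by Dixon's test, and chance alone marks about 5% of such groups. RLTR42-int at chr6:143203487-143204361, in Etnk1, had 203 CPM in mutant replicate 3, and the other mutants had 159 to 166 CPM. MMVL30-int at chr14:32117142-32119968 had 85 CPM in mutant replicate 2, and the others had 66.7 to 68.1 CPM. RLTR44-int at chr9:97276486-97278480 had 0.264 CPM, which is 1 read, in mutant replicate 1, and the others had 0.801 to 0.88 CPM. RLTR6-int at chr1:191158709-191161381 had 0.88 CPM, which is 3 reads, in mutant replicate 3, and the others had 1.32 to 1.38 CPM. The last pair of values differ by few reads. WT groups have 3 libraries and were not examined in this way.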

How the results depend on the processing

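The locus test called 10 member loci, among 375 of all 464695 loci tested. The count was 1 with a mean of at least 10 reads and 6 with a robust prior. It was 1 with bias-adjusted deviances and 1 with DESeq2, and RLTR40 on chromosome Y was the locus in each case of 1. Over all loci these settings called 16 of 60909, 237 of 464695, 15 of 464695 and 15 of 77285. Members tested were 319 with a mean of at least 10 reads and 389 with DESeq2, against 1840. When libraries were left out, the count ranged from 4 (without WT replicate 2) to 18 (without the library labelled WT replicate 3). All loci called then numbered 193 of 472209 and 617 of 467336. Without WT replicate 1 the member count was 16, among 345 of all 453910 loci. A count of 9 was found at an adjusted p under 0.05, 10 with DESeq2 size factors, 12 without TMM factors and 8 without a filter. All loci called in these settings numbered 292, 408, 419 and 257. With the replicate number as a replicate block 7 member loci were called, all among the 10, and 205 of all loci. The labels do not pair the libraries, and same-numbered libraries did not deviate together (correlations of 0.03, -0.08 and 0.02 over loci, 0.20, -0.18 and 0.23 over genes).

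The number of member names called was 0, also with the replicate block. It was 3 without loci inside genes, where 65 of all 830 names were called. Over the left-out libraries it ranged from 0 to 2 (RLTR4_Mm and RLTR42), the highest without WT replicate 2, where 60 of all 862 names were called. DESeq2 gave an adjusted p-value to 377 names, 7 of them members, and called 24 names, 0 of them members. RLTR6_Mm, RLTR6B_Mm and RLTR4_Mm had no adjusted p-value in that fit, so it did not judge them. The gene test called 1 gene, 4 without a filter, 3 after quantile normalization, 0 with the replicate block and from 1 to 722 without single libraries. Without WT replicate 1 or mutant replicate 3 it called 2 genes, and without WT replicate 2 it called 5.

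Directions turned in a few cases. The log2 fold change of MMVL30-int became 0.16 without the Rpph1 locus, 0.22 without loci inside genes and 0.13 with the replicate block and without that locus. With the replicate block alone it was -0.92, and without single libraries it ranged from -0.61 to 0.25 with the locus and from 0.085 to 0.32 without it. RLTR4_MM-int had -0.029 without TMM factors and -0.016 to 0.091 without single libraries, with a lowest value of -0.035 when the Rpph1 locus was left out as well. RLTR6C_Mm had 0.73 without loci inside genes and -0.25 to 0.0030 without single libraries, with a lowest value of -0.27 when the Rpph1 locus was left out as well. The locus in Rpph1 ranged from -0.63 to 0.25 without single libraries and was at -0.99 with the replicate block. RLTR6-int at chr11:86207347-86208018 had -0.017 without TMM factors and -0.091 to 0.15 without single libraries. The log2 ratio of the summed members ranged from -0.55 to 0.24 without single libraries. Beyond what was left out in each case, the cause was not tested.

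Shallow counts limit single loci. Reads from copies too alike to be told apart were discarded, and the share lost per copy was not measured. Without strand a locus cannot be told apart from a host transcript across it.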
